A study of Homo sapiens with 7 samples.

Results

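The genes described here are the heat shock and endoplasmic reticulum (ER) chaperone genes of H1 human embryonic stem cells, followed through treatment with the kinase inhibitor XMD892. They were taken by gene name: the HSP70 (HSPA), small heat shock protein (HSPB), HSP90, HSP60 and HSP10 (HSPD1, HSPE1), HSP110 (HSPH1), J protein (DNAJA, DNAJB, DNAJC), TRiC chaperonin (CCT, TCP1), BAG and protein disulfide isomerase (PDIA) families, with HYOU1, CALR and CANX. The deposited table lists 19775 genes, of which 95 names matched; 9 were left out as pseudogenes or antisense genes, and 86 remained. By the known location of their proteins, 48 were placed in the cytosol and nucleus, 20 in the ER and 8 in mitochondria. A further 10 were vesicle proteins, belonged elsewhere or were not assigned. The ER group includes proteins of the ER membrane and was not split by the side of the membrane on which they act. Of the 86 members, 84 averaged at least 10 normalised reads across the libraries and were tested, and HSPB9 and DNAJC22 did not.

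H1 is an established line, here wild type, and all groups grew in E8, a defined medium with insulin, transferrin, FGF2 and TGFβ, with antibiotics. The groups were E8 alone for 48 h (n = 2), and E8 with 1 µM XMD892, sampled after 12 h (n = 1), after 24 h (n = 2) and after 48 h (n = 2). The series title links XMD892 to the kinase ERK5. E8 cells were sampled at 48 h only, so at 12 h and 24 h the inhibitor and the time in culture cannot be told apart. Whether replicates came from separate cultures is not stated, and p-values therefore reflect the spread between these samples, which may be technical.

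Chaperones bind unfolded or partly folded proteins and keep them from aggregating while they fold. HSP70 proteins work in cycles of ATP use with J proteins, which deliver clients, and with nucleotide exchange factors such as HSP110 and BAG proteins, whereas HSP90 acts on later folding states and TRiC encloses actin, tubulin and other clients in a ring. Unfolded protein in the cytosol raises many of these genes through heat shock factor 1 at heat shock elements, and unfolded protein in the ER raises HSPA5 and its partners through ATF6 and related factors at ER stress elements.

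Promoters from RefSeq (GRCh38.p14) were matched to 77 members, and the windows from 250 bases before to 50 bases after each annotated start were searched on both strands. A heat shock element of 3 units (the units GAA and TTC in alternation, with any 2 bases between neighbours) was present in 5 of 43 cytosolic members (DNAJA1, DNAJB6, HSP90AA1, HSP90AB1 and HSPA8), in 1 of 8 mitochondrial members (HSPD1) and in 0 of 18 ER members. Over all 27305 genes with a promoter the share was 0.608%. The shorter form of 2 such units, which each 3-unit match contains, was present in 46.5% of the cytosolic, 5.56% of the ER and 16.2% of all promoters. The ER stress element (CCAAT, any 9 bases, then CCACG) was present in 5 of 18 ER members (CALR, CANX, HSP90B1, HSPA5 and PDIA6), in 0 of the other members and in 0.0916% of all genes. A match is a stretch of letters and not a shown binding site. The sequences below are 7 stretches chosen as examples from the members named above, and they do not show every match. They are written 5′ to 3′ on the gene's strand with the element in capitals. CANX is not among them, and it also has matches to the 2-unit form.
HSPA8, chr11:123062170-123062199, minus strand, heat shock element: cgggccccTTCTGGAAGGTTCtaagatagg
HSP90AA1, chr14:102087111-102087140, minus strand, heat shock element: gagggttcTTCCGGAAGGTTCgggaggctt
HSP90AB1, chr6:44247763-44247862, plus strand, heat shock element: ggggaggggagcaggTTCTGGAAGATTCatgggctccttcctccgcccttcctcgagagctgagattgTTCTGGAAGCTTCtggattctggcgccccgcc
HSPA5, chr9:125241344-125241443, minus strand, ER stress element: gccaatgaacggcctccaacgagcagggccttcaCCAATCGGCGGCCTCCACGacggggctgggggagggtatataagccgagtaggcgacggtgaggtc
HSP90B1, chr12:103930212-103930311, plus strand, ER stress element: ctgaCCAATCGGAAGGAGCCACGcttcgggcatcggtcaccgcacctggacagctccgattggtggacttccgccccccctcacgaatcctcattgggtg
PDIA6, chr2:10812845-10812885, minus strand, ER stress element: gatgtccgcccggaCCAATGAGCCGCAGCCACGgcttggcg
CALR, chr19:12938369-12938468, plus strand, ER stress element: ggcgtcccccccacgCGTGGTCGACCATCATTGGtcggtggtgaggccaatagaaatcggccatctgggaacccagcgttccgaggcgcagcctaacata
In CALR the element lies on the opposite strand and is therefore shown as its reverse complement. In HSP90AB1 the stretch shown holds 2 matches. HSPA8 and HSP90B1 each have a further match to their element outside the stretch shown.

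The libraries carried between 18528689 and 24148186 reads on the listed genes, and the 12 h library carried the fewest. Values are normalised read counts, in which the authors scaled each library by a single factor. Between the E8 replicates the differences followed transcript GC content, with a Spearman correlation of 0.64 between the log2 difference (replicate 2 minus replicate 1) and GC content across 15980 genes, which are not independent replicates. The same correlation was 0.00 between the 24 h replicates and -0.21 between those of 48 h. The pair of E8 values differed by more than 1.5-fold in 11 of the 84 tested members, against 16.3% of all tested genes. All 8 markers of pluripotent cells were expressed, with a sum of 163094 to 201749 per library, and POU5F1 lay between 42265 and 67878. NANOG was lower in every treated library (2552 to 4138) than in E8 (6631 and 5818). So were TDGF1 (6214 to 7791 against 11878 and 10254) and DPPA4 (17726 to 20585 against 24610 and 20891.5), the latter by a narrow margin. The treated libraries overlapped the E8 range for SOX2 (4509 to 5797 against 5019 and 6618) and LIN28A (33331 to 44146 against 34071 and 42415). The same held for DNMT3B (26432 to 40893 against 31417 and 36340) and L1TD1 (9127 to 15181 against 14465 and 12378). POU5F1 also overlapped E8 (42265 to 67878 against 46006 and 67034). The part of these markers in the chaperone values was not tested. Of the marker lists for other cells, the sums reached at most 13.97 for endoderm (GATA4), 35.8 for mesoderm (T, MESP1), 353 for neuroectoderm (SOX1, MAP2), 196 for trophoblast (GATA3, KRT7) and 2867 for fibroblasts (COL1A1, COL1A2). Other markers on these lists, such as PAX6, SOX17 and CDX2, are not among the deposited genes. In bulk RNA, fewer cells of a type and less RNA per cell cannot be told apart.

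Per kilobase of exon, the highest level in E8 among the members was that of HSP90AB1, the constitutive cytosolic HSP90, at 24378 normalised reads per kilobase. HSPA8, the constitutive cytosolic HSP70, followed at 8195 and HSP90AA1, the inducible HSP90, at 8087. HSPD1, the mitochondrial HSP60, stood at 6665, and the most abundant ER members were the lectin chaperone CALR at 5630, the ER HSP90 HSP90B1 at 4248 and the ER HSP70 HSPA5 at 3377. The heat-inducible HSP70 genes HSPA1A and HSPA1B stood at 205 and 383; their coding sequences are nearly identical, and how shared reads were divided between them is not given in the sources used here. HSPA8 and HSP90AA1 have processed pseudogene copies, so part of their reads could also be shared.

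The first time sampled was 12 h of XMD892, compared here with E8. HSPA8 rose, and so did DNAJC30, a J protein of the mitochondrial inner membrane. HSPA12B and HSPA2, both divergent or tissue-restricted members of the HSP70 family, fell, as did the weakly expressed DNAJC12. In all, 5 of 84 members passed limma, with p-values adjusted by Benjamini-Hochberg over all tested genes and a threshold of 0.05 (2 higher, 3 lower), against 7.46% of all tested genes (2.56% higher and 4.89% lower), so the share called was near the background. The test takes the spread for the single 12 h library from the other groups. Leaving out E8 replicate 1 gave 10 calls, leaving out E8 replicate 2 gave 21, and removing the GC trend of each library gave 14, and the 5 genes remained called in each of these. Of all tested genes 11.5%, 18.0% and 15.8% were called in these settings, so the background rose with the members.

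HSPA8 (chromosome 11, 123057489 to 123063230 on GRCh38) stood at 41951 and 37525 in the E8 libraries, 65813 after 12 h, 45222 and 46160 after 24 h and 40988 and 36319 after 48 h. The 12 h library lay above all others, 1.43 times the next highest, and the 24 h libraries lay above both E8 libraries, while those at 48 h overlapped E8. The log2 fold change against E8 was 0.73 (SE 0.18, limma adjusted p = 0.0136) at 12 h, 0.20 (SE 0.15, limma adjusted p = 0.366) at 24 h and -0.04 (SE 0.15, limma adjusted p = 0.893) at 48 h. The tested genes most like HSPA8 across the 7 libraries were TPM1 (Pearson r = 0.986), ANXA2 (0.985) and JPT2 (0.975), chosen as the highest among 11366 genes and given as a description. All 3 were also highest in the 12 h library, which largely follows from choosing them by likeness to HSPA8.

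The HSP90 genes of the cytosol were also highest in the 12 h library, without passing the test. HSP90AA1 stood at 45358 and 39521 in E8, 55268 after 12 h, 43690 and 40364 after 24 h and 37976 and 38535 after 48 h (12 h log2 fold change 0.38, limma adjusted p = 0.201). HSP90AB1 stood at 73302 and 71991 in E8, 86389.9 after 12 h, 68103 and 70891 after 24 h and 74430.2 and 69963 after 48 h (12 h log2 fold change 0.25, limma adjusted p = 0.437). In both genes the 12 h library lay above every other library. HSPH1, the HSP110 exchange factor of HSP70, had 3929 and 3225 in E8, 4803 after 12 h, 3653 and 3578 after 24 h and 2876 and 3082 after 48 h. Its 12 h log2 fold change was 0.43 (limma adjusted p = 0.143). DNAJA1, a farnesylated J protein that serves HSPA8, had 4519 and 4388 in E8, 6063 after 12 h, 5135 and 4745 after 24 h and 4651 and 4801 after 48 h, with a 12 h log2 fold change of 0.45 (limma adjusted p = 0.110). HSPH1 and DNAJA1 both had their highest value in the 12 h library too. DNAJA1 passed in 4 of 17 alternatives (with the GC trend removed, with or without the replicate block, and without either E8 replicate) and HSPH1 in 3 (both GC fits and without E8 replicate 1).

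**Figure D1:**
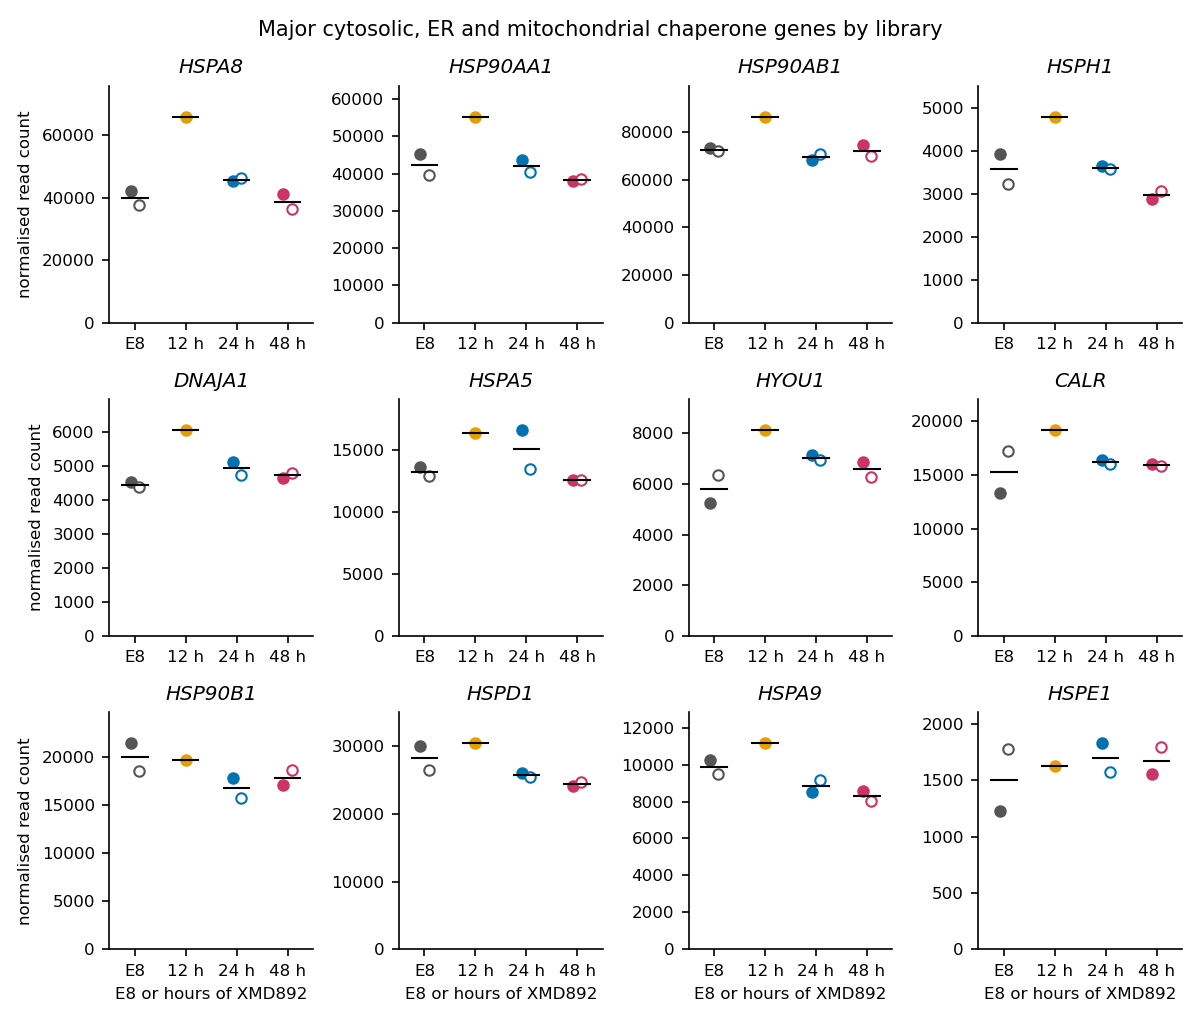
Normalised read counts of 12 major chaperone genes in each library, on axes that start at 0, for E8 and 12, 24 and 48 h of XMD892; filled points are replicate 1, open points replicate 2 and bars group means. HSPA8 reaches 65813 in the single 12 h library against 36319 to 46160 in the other 6, while HSP90B1 and HSPE1 show no such high point at 12 h.

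The classical heat-inducible genes gave a mixed picture. HSPA1A had 408 and 612 in E8, 673 after 12 h, 629 and 551 after 24 h and 535 and 451 after 48 h, so that all treated groups except 12 h overlapped E8. HSPA1B had 799 and 1130.3 in E8, 1204 after 12 h, 1323 and 1301 after 24 h and 1314 and 1052 after 48 h, and its log2 fold change at 24 h was 0.46 (limma adjusted p = 0.0697). DNAJB1, the main J protein of the heat shock response, had 1434 and 1772 in E8, 2169 after 12 h, 2225 and 2065 after 24 h and 2324 and 2076 after 48 h. Every treated DNAJB1 library thus lay above both E8 libraries, with log2 fold changes of 0.44, 0.43 and 0.46 and limma adjusted p-values of 0.151, 0.0571 and 0.0507 at 12, 24 and 48 h. At 48 h it passed in 5 of 17 alternatives, with adjusted p down to 0.00102 without E8 replicate 2. BAG3, an exchange factor that links HSP70 to small heat shock proteins, lay between 508 and 647 in all libraries, with a 24 h log2 fold change of 0.25 (limma adjusted p = 0.316).

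The 12 h library was the highest of the 7 in 29 of 84 tested members (34.5%), against 16.5% of all tested genes. By compartment this held for 16 of 47 cytosolic, 8 of 20 ER and 5 of 8 mitochondrial members and for 0 of the other 9. At 12 h 50 members lay above both E8 libraries and 20 below both, against 37.1% and 35.5% of all tested genes, and the median log2 fold change was 0.17 over the members and 0.02 over all tested genes. The number with 12 h highest stayed between 28 and 34 when the scaling was changed, each replicate was left out in turn or the GC trend was removed, alternatives chosen after seeing the data, while the share of all tested genes ran from 16.1% to 21.7%. Of the 6 members with a 3-unit heat shock element 5 were highest at 12 h (the exception was DNAJB6). Of the 25 tested members with the 2-unit form, which include these 6, 11 were, and of the 5 with an ER stress element 2 were (CALR and CANX). Any relation to these elements was not tested. Some margins were small, as the 12 h value was 1.00 times the next highest for CANX and 1.01 times for HSPD1, DNAJB2 and DNAJA3. The pattern rests on 1 library, which has no replicate among the samples used. In the same library the fibroblast marker COL1A1 stood at 1534, against 324 to 882 in the other 6, and COL1A2 at 1333 was the lowest of the 7; the neuronal marker MAP2 was at 308, against 85.6 and 63.6 in E8 and 189 to 253 in the other treated libraries. Their part in the chaperone values was not tested.

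Summed over the cytosolic members, the normalised counts were 284983 and 272523 in E8, 343122 after 12 h, 282675 and 280666 after 24 h and 278007 and 264970 after 48 h. The 12 h sum was 1.23 times the E8 mean and the later groups were at 1.01 and 0.974 times. The ER sum was 106315 and 103080 in E8, 115405 after 12 h, 105347 and 96483 after 24 h and 97032 and 98569 after 48 h. The mitochondrial sum was 45618 and 42390.3 in E8, 48615 after 12 h, 41256 and 41318 after 24 h and 38865 and 38892 after 48 h. In these 3 compartments the 12 h library held the highest sum, and in the ER and mitochondria both 48 h libraries lay below both E8 libraries, at 0.934 and 0.884 times the E8 mean. The sum of the vesicle, other or not assigned members was 4349.7 and 4705 in E8, 5206 after 12 h, 5302 and 5485 after 24 h and 5603 and 5559.9 after 48 h, so that it was highest at 48 h, at 1.23 times the E8 mean. These sums are set by a few genes of high count and carry no test.

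**Figure D2:**
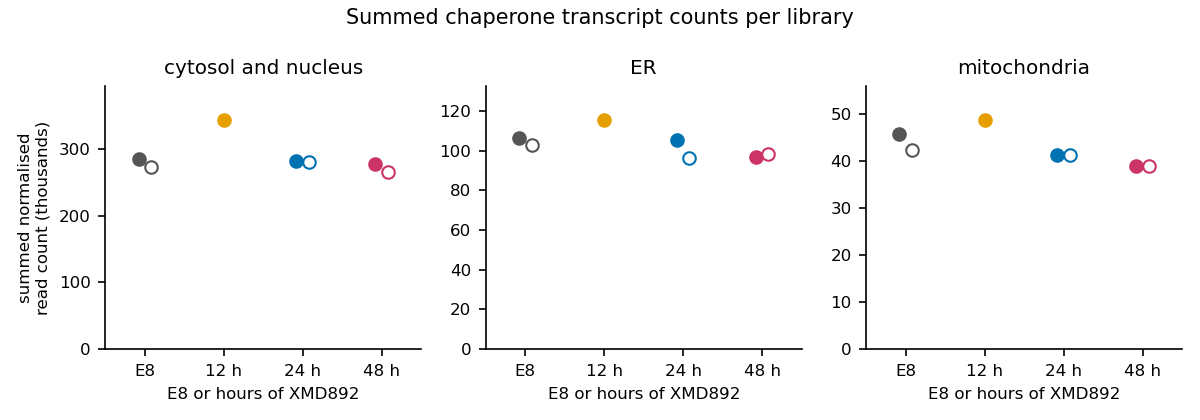
Summed normalised read counts (in kilocounts, axes from 0) of the cytosolic and nuclear, ER and mitochondrial chaperone genes in each library; filled points are replicate 1 and open points replicate 2. The 12 h library is the highest in each panel, with 343122 in the cytosol and nucleus, 115405 in the ER and 48615 in mitochondria.

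HSPA12B and HSPA2, of the HSP70 family, fell. HSPA12B, a distant HSP70 relative best known from endothelial cells (chromosome 20, 3732667 to 3753111), had 107 and 99.98 normalised reads in E8, 24.7 after 12 h, 31.2 and 16.8 after 24 h and 39.95 and 40.7 after 48 h. No treated library overlapped E8, and the mean was 4.2-fold lower at 12 h, 4.31-fold lower at 24 h and 2.57-fold lower at 48 h. The log2 fold changes were -2.03 (SE 0.42, limma adjusted p = 0.00392), -2.13 (SE 0.34, limma adjusted p = 0.000272) and -1.34 (SE 0.34, limma adjusted p = 0.0123). The calls at 12 h and 24 h held under all 17 alternatives, and that at 48 h was lost without E8 replicate 1 or without either 48 h replicate, with adjusted p up to 0.0796.

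HSPA2, an HSP70 that is most abundant in testis (chromosome 14, 64535905 to 64546173), had 616 and 638 in E8, 282 after 12 h, 359 and 437 after 24 h and 451 and 470.1 after 48 h. The 12 h library was the lowest and the treated groups did not overlap E8 at any time. Its log2 fold change was -1.15 at 12 h (SE 0.21, limma adjusted p = 0.00139), -0.66 at 24 h (SE 0.17, limma adjusted p = 0.0115) and -0.44 at 48 h (SE 0.17, limma adjusted p = 0.0941). The 24 h call was lost without 24 h replicate 1 (adjusted p = 0.215). HSPA4, an HSP110-type exchange factor, and HSPA14, a ribosome-associated HSP70, did not pass limma in any comparison with all 7 libraries. HSPA4 had 12641 and 10056 in E8, 10002.5 after 12 h, 9001 and 9227 after 24 h and 8896 and 8837 after 48 h. Each treated HSPA4 library thus lay below both E8 libraries. Its 48 h log2 fold change was -0.51 against E8 replicate 1 alone and -0.18 against E8 replicate 2 alone. DNAJC12, a cochaperone of aromatic amino acid hydroxylases, was near the detection limit, with 29.7 and 13.2 in E8, 0 after 12 h, 3.12 and 6.55 after 24 h and 13.0 and 12.9 after 48 h. Against the 3 reads that a count of 0 allows in the 12 h library, its E8 mean of 21.5 makes the level at least 6.66-fold lower (limma adjusted p = 0.00259), a limit that covers counting error only. Against E8 replicate 1 alone the limit is 9.22-fold and against E8 replicate 2 alone 4.11-fold.

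Several J proteins were higher than in E8. DNAJC30 (chromosome 7, 73680969 to 73683453) had 71.6 and 73.5 in E8, 171 after 12 h, 131 and 145 after 24 h and 113 and 126 after 48 h. All treated libraries lay above E8, by log2 fold changes of 1.22 (SE 0.27, limma adjusted p = 0.00755), 0.92 (SE 0.22, limma adjusted p = 0.00821) and 0.71 (SE 0.22, limma adjusted p = 0.0417). The 12 h call held under all 17 alternatives, the 24 h call was lost without 24 h replicate 2 (adjusted p = 0.0658), and the 48 h call was lost in 7 of 17, among them the fits without E8 replicate 1, 24 h replicate 2 or either 48 h replicate. DNAJC30 shares 359 exon bases, 14.4% of its exons, with BUD23 on the opposite strand, and without a stated strand setting reads there cannot be told apart.

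At 24 h, 9 of 84 members passed (6 higher, 3 lower), against 16.2% of all tested genes (8.66% higher and 7.56% lower). The higher genes were the J proteins DNAJC30, DNAJC1, DNAJC5, DNAJB4 and DNAJC9 and the HSP70 exchange factor BAG1. The lower ones were HSPA12B, HSPA2 and the small heat shock protein HSPB8. Leaving out E8 replicate 2 gave 25 calls, 24 h replicate 1 gave 3 and 24 h replicate 2 gave 5, and of the 9 genes 8, 3 and 5 remained in these. The shares of all tested genes called there were 30.1%, 6.76% and 10.6%. Both 24 h libraries lay above both E8 libraries in 17 members (29.8% of all tested genes) and below both in 21 (28.5%). The median log2 fold change was 0.01 over the members and 0.01 over all tested genes.

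DNAJC5, the cysteine string protein of secretory vesicles, had 1637 and 2252 in E8, 2806 after 12 h, 3130.3 and 3116 after 24 h and 3078 and 2935 after 48 h. Every treated library lay above E8, and the log2 fold change was 0.70 at 24 h (SE 0.16, limma adjusted p = 0.00428) and 0.65 at 48 h (SE 0.16, limma adjusted p = 0.00887), with 0.55 (limma adjusted p = 0.0831) at 12 h. The 24 h call held under all 17 alternatives; that at 48 h was lost without either 48 h replicate (adjusted p up to 0.102). DNAJC1, a J protein of the ER membrane that meets the ribosome, was the one ER member called in a comparison with E8. It had 227 and 231 in E8, 363 after 12 h, 437 and 352 after 24 h and 296 and 323 after 48 h. The groups did not overlap E8 at any time, and its 24 h log2 fold change was 0.77 (SE 0.18, limma adjusted p = 0.0065), lost without 24 h replicate 1 (adjusted p = 0.148).

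DNAJB4, a cytosolic J protein, had 237 and 247 in E8, 326 after 12 h, 427 and 319 after 24 h and 329 and 384 after 48 h. Its 24 h log2 fold change was 0.61 (limma adjusted p = 0.0321), and the call was lost without E8 replicate 1 or 24 h replicate 1 (adjusted p up to 0.429). BAG1 had 842 and 929.6 in E8, 1148 after 12 h, 1227 and 1233 after 24 h and 1003 and 1051 after 48 h, with a 24 h log2 fold change of 0.47 (limma adjusted p = 0.0342). DNAJC9, a nuclear J protein that also binds histones, had 686 and 843 in E8, 1011 after 12 h, 1055 and 1051 after 24 h and 1049 and 1103 after 48 h. Its log2 fold change was 0.47 at 24 h (limma adjusted p = 0.0442) and 0.50 at 48 h (limma adjusted p = 0.0411). For all 3 genes the treated libraries lay above both E8 libraries, but the BAG1 call was lost in 6 of 17 alternatives and the DNAJC9 calls in 8 and 6 of 17, each time including the fits without E8 replicate 1 or any single 24 h or 48 h replicate. DNAJC9 shares 24.0% of its exon bases with FAM149B1 on the opposite strand.

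**Figure D3:**
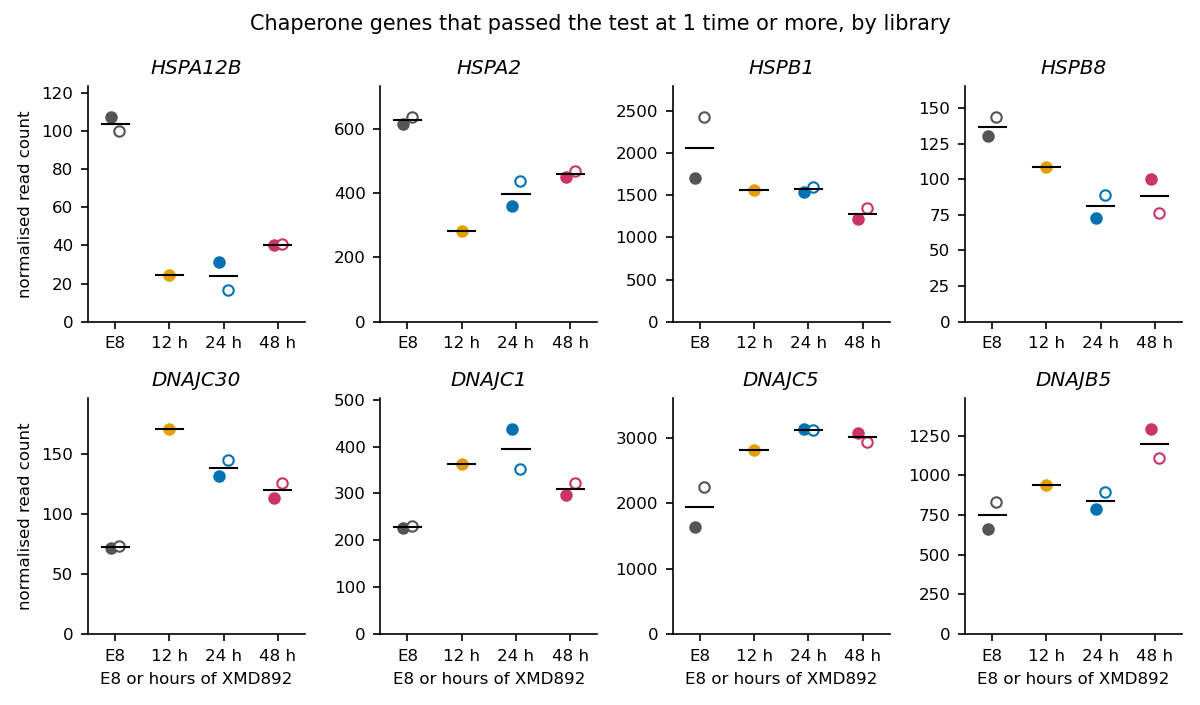
Normalised read counts per library (axes from 0) of 8 chaperone genes that passed limma against E8 at 1 time or more; filled points are replicate 1, open points replicate 2 and bars group means. HSPA12B and HSPA2 lie below E8 in each treated library and DNAJC30, DNAJC1 and DNAJC5 above it, while HSPB1 is lowest at 48 h (1215 and 1346) and DNAJB5 highest there (1292 and 1109).

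At 48 h, 9 of 84 members passed (5 higher, 4 lower), against 11.5% of all tested genes (5.08% higher and 6.45% lower), with a median log2 fold change of 0.00 over the members and 0.02 over all tested genes. The higher genes were all J proteins (DNAJC28, DNAJC30, DNAJB5, DNAJC5 and DNAJC9), and the lower ones were HSPA12B, HSPB1 and the J proteins DNAJC25 and DNAJC2. J proteins made up 16 of 47 cytosolic, 10 of 20 ER, 5 of 8 mitochondrial and 8 of 9 other tested members. Leaving out E8 replicate 2 gave 25 calls, 48 h replicate 1 gave 0 and 48 h replicate 2 gave 2 (DNAJB5 and HSPB1), and removing the GC trend gave 17. The shares of all tested genes called there were 24.8%, 4.84%, 5.03% and 19.3%. Both 48 h libraries lay above both E8 libraries in 23 members, against 27.3% of all tested genes.

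HSPB1, the small heat shock protein HSP27 (chromosome 7, 76302544 to 76304295), had 1699.9 and 2433 in E8, 1563 after 12 h, 1545 and 1597 after 24 h and 1215 and 1346 after 48 h. Each treated library lay below both E8 libraries, although the E8 values themselves were 1.43-fold apart, and the log2 fold change at 48 h was -0.67 (SE 0.16, limma adjusted p = 0.0104). The call was lost without 48 h replicate 1 (adjusted p = 0.131). HSPB8, a small heat shock protein that pairs with BAG3, had 130.1 and 144 in E8, 108 after 12 h, 72.9 and 88.9 after 24 h and 100.4 and 76.4 after 48 h. Its log2 fold change was -0.76 at 24 h (SE 0.24, limma adjusted p = 0.037), lost with DESeq2 and without any single E8 or 24 h replicate, and -0.64 at 48 h (limma adjusted p = 0.0918). The treated libraries of both genes did not overlap E8.

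DNAJB5, a cytosolic J protein (chromosome 9, 34989641 to 34998900), had 663 and 832 in E8, 938 after 12 h, 785 and 895 after 24 h and 1292 and 1109 after 48 h. The 48 h libraries were the highest, with a log2 fold change of 0.69 (SE 0.16, limma adjusted p = 0.00849) that did not pass without 48 h replicate 1 (adjusted p = 0.146). DNAJC28 was weakly expressed, at 60.2 and 28.1 in E8 and 78.8 and 95.2 at 48 h (log2 fold change 1.05, limma adjusted p = 0.0368), and did not pass with edgeR or DESeq2, without E8 replicate 2 or without either 48 h replicate. DNAJC2, a ribosome-associated J protein, had 920.2 and 729.6 in E8, 1067 after 12 h, 734 and 756 after 24 h and 570.2 and 581 after 48 h. It was thus highest at 12 h and lowest at 48 h, with a 48 h log2 fold change of -0.51 (limma adjusted p = 0.0446) lost in 6 of 17 alternatives, among them the fits without E8 replicate 1 or any single 24 h or 48 h replicate. DNAJC25 had 212 and 193 in E8, 169.6 after 12 h, 149 and 162 after 24 h and 123 and 124 after 48 h (48 h log2 fold change -0.71, limma adjusted p = 0.0269), lost without E8 replicate 1 or either 48 h replicate.

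Among the ER chaperones, 0 of 20 passed limma at 12 h or at 48 h (4 and 3 at an unadjusted p under 0.05) and 1, DNAJC1, at 24 h. Over all tested genes 7.46%, 11.5% and 16.2% passed at 12, 48 and 24 h, and 22.5% and 26.7% had an unadjusted p under 0.05 at 12 h and 48 h. With edgeR 0 ER members passed at 12 h and at 48 h, and with DESeq2 CANX and DNAJC3 passed at 48 h. With the GC trend removed HYOU1 and DNAJC1 passed at 12 h and CANX and DNAJC3 at 48 h. None of these passed at those times once the replicate block was added. Against E8 replicate 1 alone and replicate 2 alone, 12 h log2 fold changes were 0.63 and 0.36 for HYOU1 and 0.52 and 0.16 for CALR. Those at 48 h were -0.54 and -0.28 for CANX and -0.57 and -0.37 for DNAJC3. HSPA5, the ER HSP70 also called BiP (chromosome 9, 125234853 to 125241330), had 13562 and 12831 in E8, 16293 after 12 h, 16565 and 13442 after 24 h and 12528 and 12509 after 48 h. The 12 h library and 24 h replicate 1 were high, the other 24 h library overlapped E8, and both 48 h libraries lay just below E8. The log2 fold changes were 0.30, 0.18 and -0.08, with limma adjusted p-values of 0.32, 0.432 and 0.787. The genes most like HSPA5 across the 7 libraries were SARAF (Pearson r = 0.988), AP1S3 (0.953) and MPV17L (0.944), again as a description.

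HYOU1, the exchange factor of HSPA5, had 5244 and 6343 in E8, 8122 after 12 h, 7123 and 6934 after 24 h and 6873 and 6288 after 48 h. The 12 h and 24 h libraries lay above E8, with a 12 h log2 fold change of 0.49 (SE 0.17, limma adjusted p = 0.0874). HSP90B1, whose promoter holds 2 ER stress elements, had 21409 and 18484 in E8, 19658 after 12 h, 17769 and 15701 after 24 h and 17057 and 18611 after 48 h (24 h log2 fold change -0.25, limma adjusted p = 0.246). Its highest library was an E8 library, unlike that of HSPA5 and HYOU1.

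Of the lectin chaperones that hold newly made glycoproteins, CALR had 13357 and 17203 in E8, 19183 after 12 h, 16358 and 16051 after 24 h and 15975 and 15845 after 48 h. CANX had 14833 and 12383 in E8, 14859 after 12 h, 11464 and 11025 after 24 h and 10273 and 10176 after 48 h. CANX therefore lay below both E8 libraries at 24 h and 48 h, with a 48 h log2 fold change of -0.41 (SE 0.14, limma adjusted p = 0.0652), whereas CALR overlapped E8 at both times. DNAJC3, the J protein of HSPA5 that is also an inhibitor of eIF2α kinases, had 779 and 676 in E8, 882 after 12 h, 810.2 and 759 after 24 h and 502 and 545 after 48 h. Its 48 h libraries were the lowest (log2 fold change -0.47, SE 0.16, limma adjusted p = 0.0589). DNAJB9, an ER J protein that represses the sensor IRE1, lay between 202 and 268 in all libraries without separation of any group from E8. Of the disulfide isomerases, PDIA5 lay between 458 and 672 and was highest at 12 h, with a 12 h log2 fold change of 0.40 (limma adjusted p = 0.271). PDIA6 lay between 5604 and 6294, PDIA3 between 10427 and 12493, and PDIA4 between 8410 and 10310, with both 24 h and both 48 h libraries of PDIA4 below E8 (48 h log2 fold change -0.23, limma adjusted p = 0.298). PDIA6 and PDIA3 share 25.2% and 14.8% of their exon bases with ATP6V1C2 and ELL3 on the opposite strand.

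In mitochondria, the HSP70 HSPA9 had 10280.5 and 9519 in E8, 11161 after 12 h, 8518 and 9176 after 24 h and 8592 and 8022 after 48 h. The chaperonin HSPD1 had 30124 and 26461 in E8, 30458 after 12 h, 26024 and 25457 after 24 h and 24099 and 24723 after 48 h. In both genes the 24 h and 48 h libraries lay below both E8 libraries, with 48 h log2 fold changes of -0.25 (limma adjusted p = 0.251) and -0.21 (limma adjusted p = 0.363). HSPE1, the HSP10 lid of HSPD1, had 1228 and 1782 in E8, 1632 after 12 h, 1829.7 and 1573 after 24 h and 1554 and 1795 after 48 h, so each treated group overlapped E8. HSPE1 and HSPD1 are neighbours on chromosome 2 that share 281 exon bases on opposite strands. DNAJA3, the J protein of HSPA9, had 1378 and 1762 in E8, 2019 after 12 h, 1846 and 1993 after 24 h and 1642 and 1591 after 48 h, with a 12 h log2 fold change of 0.37 (limma adjusted p = 0.244). DNAJC30 was the one mitochondrial member called, in each comparison with E8.

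The TRiC subunits varied little between libraries. The weakly expressed CCT6B lay between 8.59 and 37.7, and for the others the coefficient of variation over the 7 libraries ran from 2.92% to 12.0%, against a median of 18.1% over all tested genes. This compares unlike levels, as the median level was 8176 for the TRiC genes and 372 for all tested genes. The disulfide isomerases, with a median level of 7600, had a median coefficient of variation of 7.02%. In the comparisons with E8, 0 of the 9 TRiC genes passed limma, edgeR or DESeq2, and 0 had an unadjusted limma p under 0.05. CCT7 passed at each time when E8 replicate 2 was left out. CCT5 lay between 9298 and 10058. CCT2 had 7690.1 and 6781 in E8, 8671 after 12 h, 7797 and 7499 after 24 h and 7762 and 7186 after 48 h. TCP1 had 8251 and 7655 in E8, 9617 after 12 h, 8870.4 and 8379 after 24 h and 7231 and 7231 after 48 h. In both the 12 h library was the highest, with 12 h log2 fold changes of 0.26 and 0.28 (limma adjusted p = 0.383 and 0.349).

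By compartment, the median log2 fold change at 12 h was 0.23 in the ER, 0.17 in the cytosol and nucleus and 0.17 in mitochondria. At 24 h it was 0.10, -0.02 and 0.17, and at 48 h 0.05, -0.02 and 0.09. The corresponding medians over all tested genes were 0.02, 0.01 and 0.02, and these differences between compartments were not tested. The 3 comparisons share the E8 libraries.

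**Figure D4:**
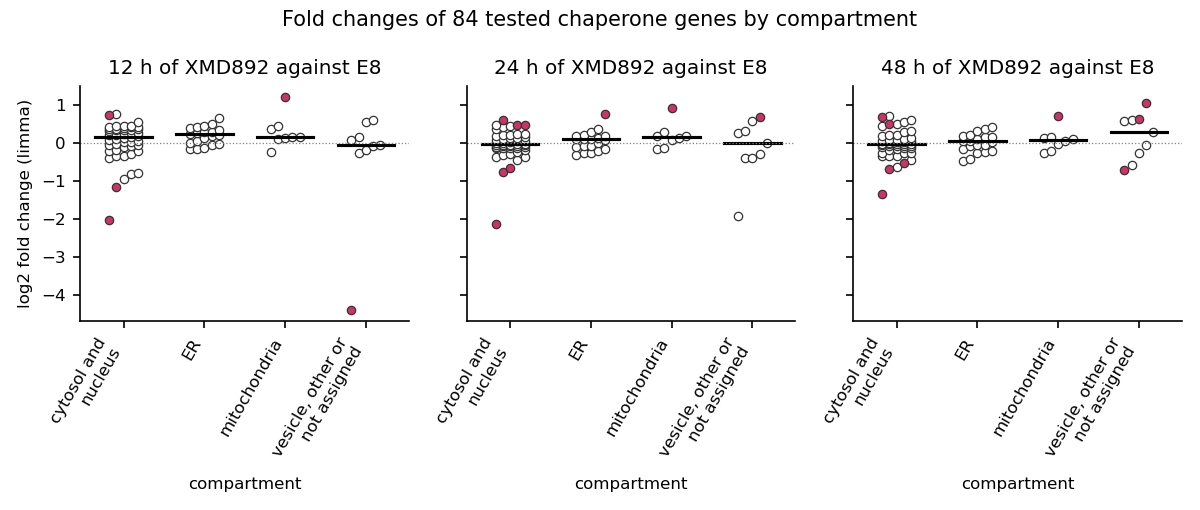
Log2 fold changes against E8 (limma) of the 84 tested chaperone genes by compartment at 12, 24 and 48 h; each point is a gene, filled where it passed at an adjusted p under 0.05, and bars are medians. At 48 h all 20 ER points and 38 of 47 cytosolic and nuclear points lie within 0.5 of 0, but 3 of 9 in the vesicle, other or not assigned group; the ER holds 1 filled point (DNAJC1 at 24 h), and the lowest point is DNAJC12 at 12 h, a fitted value from 0 reads.

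Between the treated times, 0 of 84 members passed limma from 12 h to 24 h (7 at an unadjusted p under 0.05), against 0.391% of all tested genes (0.263% higher and 0.128% lower), and 0 with edgeR and with DESeq2. Both 24 h libraries lay below the 12 h library in 51 members (38.6% of all tested genes) and above it in 17 (39.2%). From 24 h to 48 h 0 passed limma (5 at an unadjusted p under 0.05), against 1.2% of all tested genes (0.349% higher and 0.856% lower), 0 with edgeR and 1, DNAJC3, with DESeq2. Both 48 h libraries lay above both 24 h libraries in 19 members (23.7% of all tested genes) and below both in 29 (25.2%). Leaving out E8 replicate 1 or E8 replicate 2 changes only the estimate of the spread in these comparisons, and the fold changes stay the same.

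Which E8 library served as the reference moved many members. Fold changes at 48 h against E8 replicate 1 alone and against replicate 2 alone had opposite signs in 24 of the 84 tested members. Without E8 replicate 2 the 25 members called at 48 h were 15 higher and 10 lower; without E8 replicate 1 there were 6, of which 4 (DNAJB5, DNAJC28, DNAJC5 and HSPB1) had also been called with both. Over all tested genes the share called at 48 h likewise rose without E8 replicate 2 and fell without E8 replicate 1. The members' median GC content was 45.8%, against 48.5% for all tested genes. The Spearman correlation of the log2 fold change with GC content across 15980 genes was 0.05 at 12 h, 0.31 at 24 h and 0.19 at 48 h.

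**Figure D5:**
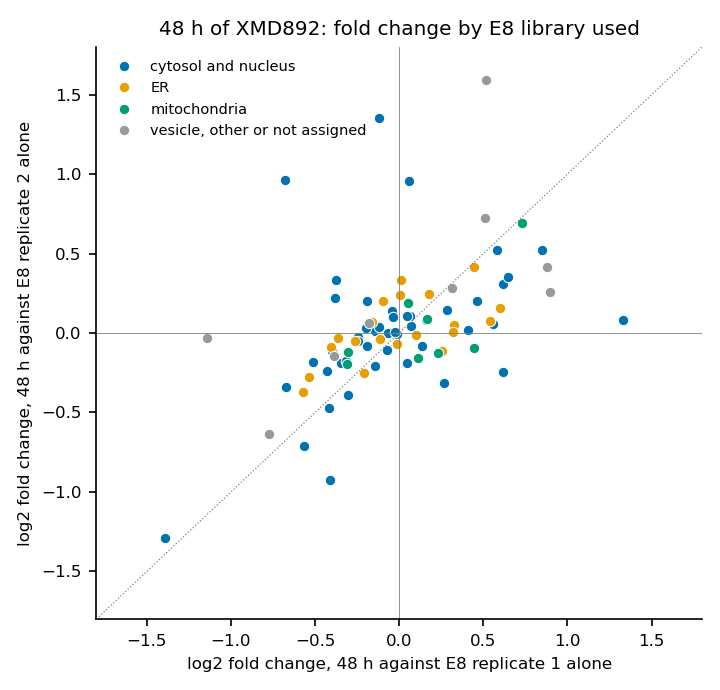
Log2 fold change of each tested chaperone gene at 48 h of XMD892 computed against E8 replicate 1 alone (x axis) and against E8 replicate 2 alone (y axis), coloured by compartment; the dotted line marks equal values. Points with x and y of opposite sign are the 24 genes whose sign depends on the E8 library used.

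Other genes of protein folding that are no members were followed in lists. Of all tested genes 2.56%, 8.66% and 5.08% were called higher and 4.89%, 7.56% and 6.45% lower at 12, 24 and 48 h. For these lists the calls with single libraries left out are not reported here. Of 14 cochaperones of HSP70 and HSP90, 0 passed at 12 h (3 at an unadjusted p under 0.05), 5 were higher at 24 h and 1 at 48 h, with 0 lower. The largest at 24 h was STUB1, the ubiquitin ligase CHIP, with 402 and 939 in E8 and 1444 and 1357 at 24 h (log2 fold change 1.19, limma adjusted p = 0.00221). Its 24 h mean was 2.09 times the E8 mean, 3.48 times E8 replicate 1 and 1.49 times E8 replicate 2. CDC37, which brings kinases to HSP90, followed at 0.65 (limma adjusted p = 0.0118), and UNC45A, a myosin chaperone, at 0.65 (limma adjusted p = 0.00837). CDC37 had 2368 and 3725 in E8 and 4671 and 4672 at 24 h. UNC45A had 1840 and 2582 in E8 and 3524 and 3311 at 24 h. In both genes E8 replicate 1 was the lower of the E8 libraries, as for STUB1. Of 13 other mitochondrial folding and protease genes, 2 were higher at 12 h, 5 at 24 h and 2 at 48 h, with 0 lower. CLPB, a mitochondrial disaggregase, had 331 and 343 in E8, 608 after 12 h, 646 and 651 after 24 h and 600.4 and 559 after 48 h, and ATF5, a factor of the mitochondrial stress response, had 160 and 224 in E8 and 440.1 at 12 h (log2 fold change 1.21, limma adjusted p = 0.00402). In CLPB each treated library lay well above E8 (log2 fold change 0.94 at 24 h, limma adjusted p = 0.000546).

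Of 32 other ER folding and quality control genes, 2 were higher at 12 h, 6 at 24 h and 2 at 48 h, and 0 were lower. These are 6.25%, 18.8% and 6.25% of the list, against 7.46%, 16.2% and 11.5% of all tested genes called in either direction. SEC61A1, the channel of the ER translocon, had 4270.2 and 4827 in E8, 7724 after 12 h, 6723 and 6635 after 24 h and 5415 and 4784 after 48 h, with log2 fold changes of 0.77 at 12 h (limma adjusted p = 0.00768) and 0.56 at 24 h (limma adjusted p = 0.01). Of 9 sensors and factors of the unfolded protein response, 0 passed at 12 h and at 24 h (3 and 1 at an unadjusted p under 0.05), and at 48 h PPP1R15A, the phosphatase subunit that acts on eIF2α, was higher and TRIB3 and XBP1 were lower, again against 7.46%, 16.2% and 11.5% of all tested genes. XBP1, whose spliced form is a factor of ER stress, had 2465 and 2617 in E8, 1853 after 12 h, 2393 and 1803 after 24 h and 1600.3 and 1584 after 48 h (48 h log2 fold change -0.67, limma adjusted p = 0.00634). HSF1, the heat shock factor named above, had 1524 and 1820.3 in E8, 1926 after 12 h, 2238 and 2274 after 24 h and 1881 and 1831 after 48 h, and its 24 h log2 fold change of 0.44 passed (limma adjusted p = 0.0451). Of 6 prefoldin subunits 1 was higher at 24 h (PFDN6, at 2.57 times E8 replicate 1 and 1.06 times E8 replicate 2) and 0 passed at 12 h or 48 h (1 and 3 at an unadjusted p under 0.05).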

How the data were processed

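The deposited signal is normalised read counts per gene symbol for 7 libraries of poly(A) RNA; the authors divided gene counts by 1 factor per library, as the values show. The submitters' processing notes name Trimmomatic 0.36, STAR, featureCounts 1.5.3, DESeq2 1.26.0 and hg38; the annotation and strand setting are not given in the sources used here. A further 2 columns, whose headers name them as more 12 h XMD892 libraries, matched no sample and were not used. Members and lists were chosen with earlier results of these data known. Genes with a mean of 10 or more (16351) were tested: limma 3.58.1 (R 4.3.3) on log2(value + 1), so folds of low genes are understated, with 1 mean per group over all 7 libraries, trended prior variance (3 residual and 18.4 prior degrees of freedom) and Benjamini-Hochberg adjustment over all tested genes. The fit was tested on simulated data. Within 0.1, 100% of values were whole multiples of a library's step; edgeR 4.0.16 on the reads so recovered called 1182, 2612 and 1872 genes and DESeq2 1.42.0 1020, 2160 and 1560 at 12, 24 and 48 h. Also tried were a pseudocount of 0.5 or 5, a minimum mean of 50 or none, TMM factors, the same total, a replicate block, a GC trend (loess, span 0.3) and each replicate left out. Named genes are a set of well-known chaperones and up to 6 called members per direction without overlap of the groups. Coordinates, exon lengths and GC content are from GENCODE 29 on GRCh38 (97.4% of symbols matched). Motifs were searched with Python 3.11.15.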

Additional observations from a re-analysis of the deposited data

How the results depend on the processing

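The number of chaperone genes called moved with the setting, in groups of 1 or 2 libraries. With each replicate left out in turn the number ran from 5 to 21 at 12 h, 3 to 25 at 24 h and 0 to 25 at 48 h, and from 0 to 2 both from 24 h to 48 h and from 12 h to 24 h; the share of all tested genes called moved too, from 6.24% to 18.0%, 6.76% to 30.1% and 4.84% to 24.8% at 12, 24 and 48 h. A lone library is then assumed to vary like the other groups. With the GC trend removed it was 14 at 12 h, 17 at 48 h and 2 from 24 h to 48 h, with the GC trend removed together with the replicate block 8 at 12 h and 2 from 24 h to 48 h, and with DESeq2 1 from 24 h to 48 h. With replicate numbers as a block it was 5 at 12 h, 7 at 24 h and 8 at 48 h. The correlations of same-numbered deviations were -0.04, -0.05 and -0.07. These values show no sign of pairing by number, but they cannot exclude it. Of the values for single genes under an alternative, 709 kept their direction and side of the threshold, 58 lost it, 26 gained it and 4 changed sign: with each replicate left out in turn the log2 fold change ran from -0.28 to 0.018 for DNAJB9 at 12 h, and at 24 h from -0.071 to 0.47 for HSPE1, -0.22 to 0.014 for PDIA3 and -0.14 to 0.0040 for PDIA6. The changed signs came without E8 replicate 1 (DNAJB9 0.018, HSPE1 -0.071, PDIA3 0.014) and, for PDIA6, without 24 h replicate 2. None of these 4 was called in any setting except HSPE1, called without E8 replicate 2. The cause of these changes was not tested. For DNAJC12, HSPA12B and CCT6B few reads limit the precision.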
